A study of Rattus norvegicus with 2 samples.

Results

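The endoplasmic reticulum (ER) stress genes described here are 10 rat genes, chosen by symbol among the features that carry a number-only gene ID: Hspa5, Hsp90b1, Calr, Canx, Pdia3, Xbp1, Atf4, Ddit3, Trib3 and Herpud1. All 10 were found, out of 16484 such genes in a table of 113011 features, and each was listed on the chromosome where RefSeq places it. RNA was sequenced from the urine of Sprague Dawley rats in 2 libraries, 1 per group. The WT library came from sham-operated rats, operated on without tying the ureter. The UUO library came from rats with unilateral ureteral obstruction, in which the right ureter had been tied 14 days earlier, a model that scars the kidney. Rats of both groups were given as postnatal day 56, and urine was collected by catheter from the ureter. The number of animals behind a library is not given. With 1 library per group there is no replicate check and no test, and every difference below is a difference between these 2 libraries. The table does not use the sample titles, and its conditions UrRf and Urc were taken for UUO and WT, so all directions would turn if these were exchanged.

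The endoplasmic reticulum is where secreted and membrane proteins are folded. When unfolded proteins collect there, 3 sensors, the kinases IRE1 (gene Ern1) and PERK (Eif2ak3) and the transcription factor ATF6, start the unfolded protein response. IRE1 splices the mRNA of Xbp1, ATF6 and XBP1 raise the transcription of chaperone genes through an ER stress element in their promoters, and PERK slows translation while letting ATF4 protein be made. ATF4 turns on genes of amino acid supply and, with prolonged stress, Ddit3, which encodes the cell death factor CHOP. In kidney tubule cells this response is known from obstruction, toxins and protein overload.

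The ER stress element is shown first, since it stands in some of the searched member promoters and not in others, a division by letters only. It was searched on both strands, as CCAAT followed by CCACG with exactly 9 bases of any kind between them, in RefSeq promoter windows of the GRCr8 assembly, which run from 250 bases before to 50 bases after each gene start. The windows of 8 members were searched, those of Hspa5, Hsp90b1, Calr, Xbp1, Atf4, Ddit3, Trib3 and Herpud1. Of these 8 windows 4 held the element, against 21 of 33468 windows searched over all genes (0.0627%). Among windows of genes that reached an FPKM of 1 in either library, a level explained below, the share was 0.164%. The element is known from promoters of ER chaperone genes, so its presence in such members was likely beforehand and the contrast is no test. Capitals mark the element in the stretches below, each written 5′ to 3′ along the gene with 10 bases on either side. In Calr and in the second Hsp90b1 stretch it lies on the other strand and therefore begins with CGTGG.
Hspa5, chr3:38452963-38453001, plus strand: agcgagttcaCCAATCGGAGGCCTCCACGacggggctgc
Hsp90b1, chr7:23012441-23012479, minus strand: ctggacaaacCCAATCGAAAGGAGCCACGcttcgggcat
Hsp90b1, chr7:23012337-23012375, minus strand: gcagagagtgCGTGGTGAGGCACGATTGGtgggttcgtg
Calr, chr19:40213125-40213163, plus strand: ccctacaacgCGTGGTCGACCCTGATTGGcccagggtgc
Xbp1, chr14:84604548-84604586, plus strand: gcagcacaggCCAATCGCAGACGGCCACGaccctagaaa

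Herpud1 held a second form of the element, ATTGG and CCACG with 1 base of any kind between them, searched after the first had been seen. It occurs in 17 of all windows (0.0508%), in 0.117% of windows of genes that reached an FPKM of 1, and in no other of the 8 member windows. This form was not among the sites listed beforehand, so the match in Herpud1 is a description and no test.
Herpud1, chr19:10614811-10614841, minus strand: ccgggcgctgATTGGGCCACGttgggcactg

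The partial sites alone were common: CCAAT stood in 37.5% and CCACG in 31.6% of all windows, and in 6 and 7 of the 8 member windows. Among windows of genes that reached an FPKM of 1 in either library the shares were 37.5% and 47.0%. Each full element above contains both partial sites, and the second form overlaps both as well. The XBP1 site TGACGTGG and the amino acid response sites TGATGCAAT, TGATGAAAC, TGATGCAAA and TGATGTAAT were found in 0 of the 8 member windows, and in 0.595%, 0.188%, 0.209%, 0.263% and 0.338% of all windows. A match is a match of letters, and a window without one says nothing about sites outside it.

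**Figure D1:**
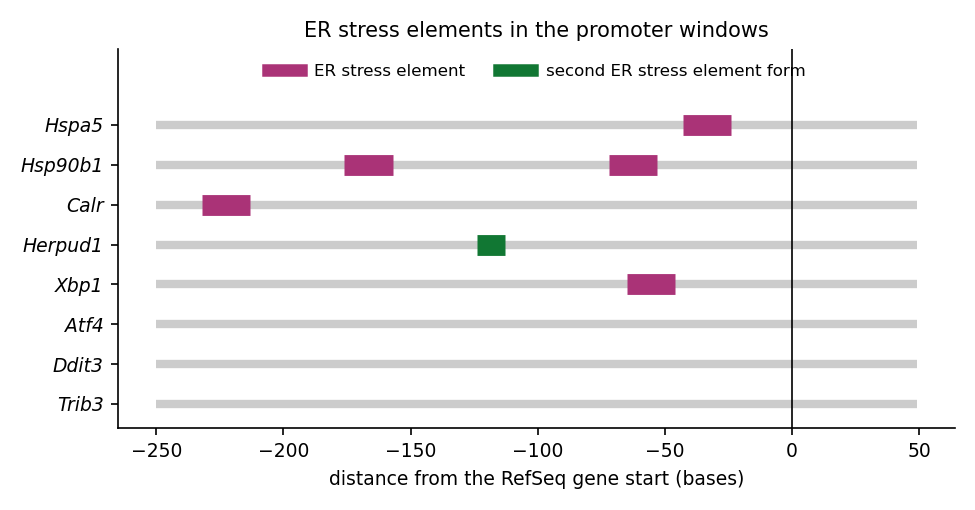
Position of the ER stress element (purple) and of its second form (green) in the promoter windows of 8 members, in bases from the RefSeq gene start (grey bars, the window). Hspa5 and Xbp1 carry it nearest to the start, from position -43 and -65, Hsp90b1 carries it at 2 positions, and Atf4, Ddit3 and Trib3 carry neither form.

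Levels are given as FPKM, the number of fragments per kilobase of transcript relative to the fragments of the library, which allows levels to be compared between genes. Differences are given as UUO minus WT on the scale of log2(FPKM + 1), which understates differences of low genes, and a gene is counted as higher or lower at a difference of 1 (2-fold). As deposited, the median difference was -0.51 over the 9853 annotated genes that reached an FPKM of 1 in either library. Scaling the UUO library by the median ratio of genes detected in both (a factor of 1.86) adds up to 0.89 to each difference, and values of the members and pathway lists on that scale are given beside the deposited ones. Below, shares and medians of all genes refer to the 9853 genes, or to 10582 on the median-ratio scale, unless 16484 is given. Over all 16484 annotated genes, 4166 were listed at 0 in WT only and 182 in UUO only, so that a 0 in WT alone was common. All 10 members had an FPKM above 1 in both libraries. Their positions are given as listed in the table, on the rn5 genome that the submitters' processing notes name, and a listed position spans every feature that overlaps the gene.

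Among the members the 2 libraries differed most in a pair of genes of the PERK branch, in opposite directions. Atf4 mRNA was about 8-fold lower and Ddit3 mRNA about 8-fold higher in UUO urine, while the ER chaperones Hspa5, Hsp90b1, Calr and Canx lay within 2-fold. Summed over its locus, which holds another gene, Ddit3 was within 2-fold too. Of the 10 members 1 was higher (Ddit3) and 4 were lower (Atf4, Herpud1, Pdia3 and Trib3) in UUO urine. Over the 9853 annotated genes that reached an FPKM of 1, 25.7% were higher and 36.5% lower, so that the members' counts were near the background. On the median-ratio scale 3 members were higher (Ddit3, Hsp90b1 and Calr) and 2 lower (Atf4 and Herpud1), against 39.8% and 15.6% of all genes. The median difference of the members was -0.55, beside -0.51 for all genes, and 0.33 on the median-ratio scale, beside 0.46.

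**Figure D2:**
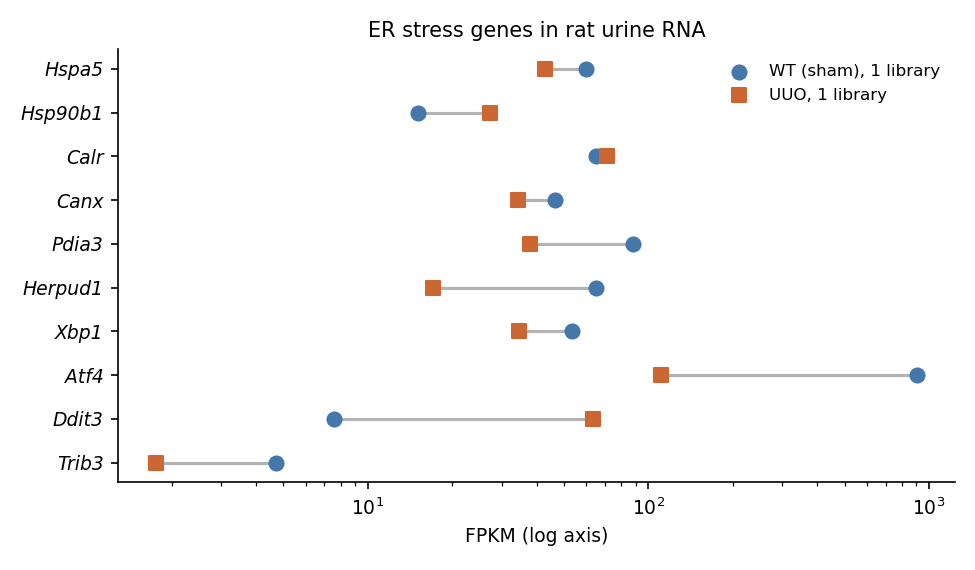
FPKM of the 10 members on a log axis in the WT (blue circles) and the UUO library (orange squares), 1 library each, joined by a line per gene. Atf4 and Ddit3 have the longest lines and run in opposite directions, from 904 to 111 and from 7.59 to 63.6, and Calr has the shortest, from 64.9 to 71.0.

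Hspa5 (gene ID 25617, chromosome 3, 19157873 to 19162333) encodes BiP, the main Hsp70 chaperone of the ER lumen and the usual marker of the unfolded protein response. Its FPKM was 59.7 (WT) and 42.7 (UUO), a difference of -0.47. The sign turned to 0.41 on the median-ratio scale. Hspa5 ranked at percentile 93.0 of the annotated genes in WT and at 95.5 in UUO urine, a measure that no scaling moves. It depends on how many genes are listed at 0, 8460 in WT and 4476 in UUO urine. Among genes above 0 only, Hspa5 ranked at 85.5 (WT) and 93.8 (UUO), so that it was an abundant mRNA in both libraries.

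Hsp90b1 (gene ID 362862, chromosome 7, 27345682 to 27359807) encodes GRP94, the Hsp90 chaperone of the ER. It had an FPKM of 15.1 (WT) and 27.4 (UUO), a difference of 0.82, and 1.69 on the median-ratio scale. As deposited its level was 1.82-fold higher in UUO urine. Its percentile was 75.4 (WT) and 92.1 (UUO), and 49.5 and 89.2 among genes above 0 only. The ratio of Hsp90b1 to Hspa5 FPKM within a library was 0.252 (WT) and 0.640 (UUO), 2.54 times apart. Its cytosolic relative Hsp90ab1 had an FPKM of 669 (WT) and 268 (UUO), and the ratio of Hsp90b1 to Hsp90ab1 was 0.0225 and 0.102. These ratios, and those of other members below, do not depend on the scaling and were chosen after the values had been seen.

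Calr (gene ID 64202, chromosome 19, 36932391 to 36937289) and Canx (gene ID 29144, chromosome 10, 35562607 to 35595535) encode calreticulin and calnexin, the lectin chaperones that hold newly made glycoproteins until they are folded. Calr had an FPKM of 64.9 (WT) and 71.0 (UUO), a difference of 0.13, and 1.01 on the median-ratio scale. Another feature at its locus, the noncoding entry NONRATT028167, had an FPKM of 169 (WT) and 2.35 (UUO). Summed over the 6 features of the locus, FPKM was 233.7 (WT) and 74.4 (UUO), which turns the direction, to a difference of -1.64. The direction of Calr thus depended on whether this entry was counted with it. Canx had an FPKM of 46.4 (WT) and 34.2 (UUO), a difference of -0.43 that turned to 0.45 on the median-ratio scale.

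Pdia3 (gene ID 29468, chromosome 3, 119916678 to 119945947), also called ERp57, is the disulfide isomerase that works with calreticulin and calnexin. Its FPKM was 88.2 (WT) and 37.7 (UUO), 2.34-fold lower, a difference of -1.20. By the median ratio the difference was -0.33, inside the 2-fold limit. Of all genes 30.6% had a difference below that of Pdia3. Its locus also holds Ell3, with an FPKM of 19.2 (WT) and 3.35 (UUO).

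Herpud1 (gene ID 85430, chromosome 19, 11027601 to 11038271) encodes a membrane protein that helps to organise the degradation of misfolded ER proteins. It had an FPKM of 65.2 (WT) and 17.1 (UUO), 3.81-fold lower, a difference of -1.87. The difference stayed past the 2-fold limit under every scaling and summed over its locus, at -1.01 by the median ratio, the value nearest to 0. The ratio of Herpud1 to Hspa5 was 1.09 (WT) and 0.401 (UUO). Of all genes 14.3% had a difference below that of Herpud1.

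Xbp1 (gene ID 289754, chromosome 14, 86423833 to 86429083) is the transcription factor whose mRNA is spliced by IRE1. Its FPKM was 53.5 (WT) and 34.6 (UUO), a difference of -0.62, and 0.26 on the median-ratio scale. The table gives 1 value per gene, so spliced and unspliced Xbp1 cannot be told apart.

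Atf4 (gene ID 79255, chromosome 7, 121468269 to 121470594) was the most abundant member in both libraries. Its FPKM was 904 (WT) and 110.6 (UUO), 8.17-fold lower, a difference of -3.02. Rescaled by the median ratio it was -2.13. Only 3.21% of all genes had a difference below that of Atf4. It ranked at percentile 99.9 (WT) and 98.8 (UUO) and held 69.0% of the members' summed FPKM in WT but 25.1% in UUO urine. Without Atf4 the other members summed to an FPKM of 405 (WT) and 330.0 (UUO). ATF4 protein is set mainly at translation, so the mRNA level is not a measure of its activity.

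Ddit3 (gene ID 29467, chromosome 7, 70754394 to 70776456) had an FPKM of 7.59 (WT) and 63.6 (UUO), 8.38-fold higher, a difference of 2.91. Rescaled by the median ratio it was 3.79. Of all genes 95.9% had a lower difference. Its percentile was 65.7 (WT) and 97.4 (UUO), and its place among the 10 members, ordered by FPKM, went from 9 to 3. Among genes above 0 only, the percentile of Ddit3 was 29.6 (WT) and 96.4 (UUO). The ratio of Ddit3 to Atf4 FPKM was 0.00839 (WT) and 0.575 (UUO), 68.5 times apart, a ratio that no scaling moves. It restates the 2 opposite differences, was chosen after they had been seen, and rests on the single Ddit3 feature. The listed locus also holds Mars1, the methionyl tRNA synthetase gene, with an FPKM of 30.6 (WT) and 11.6 (UUO). Summed over all 11 features of the locus the difference was 0.73. Without Mars1 the sum was 17.8 (WT) and 69.0 (UUO), a difference of 1.90.

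Trib3 (gene ID 246273, chromosome 3, 154162194 to 154167791) encodes a pseudokinase that binds ATF4 and CHOP and is induced by both. It was the lowest member, with an FPKM of 4.71 (WT) and 1.76 (UUO), a difference of -1.05 that came to -0.42 on the median-ratio scale. By the steps in the FPKM values this stood for about 9.95 fragments per kilobase in WT and 4.31 in UUO, and the difference rests on few fragments. Ddit3 in WT urine rested on about 16.0 fragments per kilobase, and the other members on 31.8 or more in WT and 41.9 or more in UUO urine. Trib3 and Ddit3 thus lay on opposite sides, and their ratio was 0.620 (WT) and 0.0277 (UUO).

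**Figure D3:**
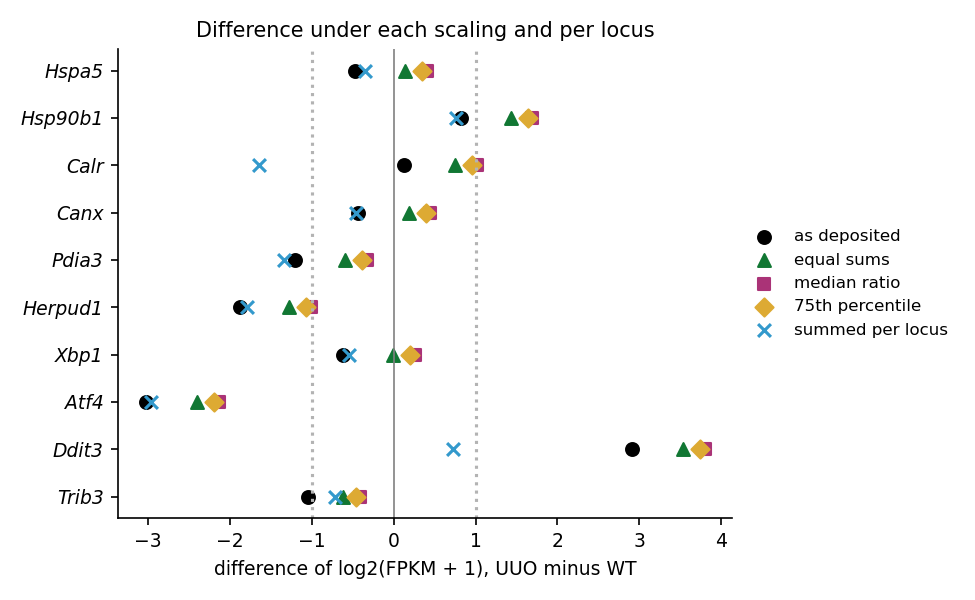
Difference of log2(FPKM + 1), UUO minus WT, for each member as deposited (black), after 3 scalings of the UUO library (green, purple, yellow) and summed over all features of its locus (blue crosses). Dotted lines mark 2-fold. Atf4 and Herpud1 stay left of -1 and Hsp90b1 and Ddit3 right of 0 in every setting, Calr moves to -1.64 and Ddit3 to 0.73 when summed per locus, and Hspa5, Canx and Xbp1 change sign with the scaling.

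The 4 members found with the ER stress element (Hspa5, Hsp90b1, Calr and Xbp1) had differences from -0.62 to 0.82, and 0 of them passed the 2-fold limit. The 4 others whose window was searched (Atf4, Ddit3, Trib3 and Herpud1) had differences from -3.02 to 2.91, and 4 passed it. Herpud1 among them carries the second form. Of all genes 25.7% passed the limit as higher and 36.5% as lower, so that passing it was common. By the median ratio Hsp90b1 and Calr passed it and Trib3 did not. Summed per locus Calr passed it, at -1.64, and Ddit3 (0.73) and Trib3 (-0.71) did not. Hsp90b1 passed it with library sums made equal (1.43) and with 75th percentiles made equal (1.64), where Trib3 did not (-0.62 and -0.46). With 10 in place of 1 added to each FPKM, Trib3 did not pass it (-0.32). The division held on deposited single features with 1 or 0.1 added, and in none of these other settings. Outside the members, genes with the same element in their window were not alike. Creld2, which encodes an ER-resident protein, had an FPKM of 21.0 (WT) and 2.24 (UUO), and Dnajc3, a cochaperone of BiP, 39.1 and 15.1. Zfand2a, a proteasome adaptor, had 9.55 and 29.0. Ero1b and Hnrnpa3 were also lower and Ppm1l higher past the 2-fold limit, while Ankmy2, Birc5 and Pan2 lay within it. On the median-ratio scale Dnajc3 lay within the limit, at -0.47, and Pan2 passed it, at 1.10. Creld2, Dnajc3 and Zfand2a were chosen to be given with FPKM after their values had been seen.

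Of 9 sensor and eIF2 kinase genes 8 had an FPKM of at least 1, and all 8 were within 2-fold as deposited, with a median difference of -0.31. Over all genes 3719 of 9853 were within 2-fold. Summed per locus, Mbtps2 was higher, at 1.87, and Atf6b lower, at -1.38. The PERK gene Eif2ak3 had an FPKM of 7.46 (WT) and 6.16 (UUO), the IRE1 gene Ern1 3.54 and 2.82, and Atf6 8.42 and 6.85. Differences ran from -0.84 in Eif2ak2, the kinase that senses double-stranded RNA, to 0.33 in Atf6b. Mbtps2, the protease that makes the second cut in ATF6, was listed at 0 (WT) and 0.252 (UUO). After rescaling, 1 of these genes, Atf6b, passed the 2-fold limit, and the median was 0.46, as for all genes.

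The ATF4 branch list holds ATF4 targets, partners and the genes that act on eIF2 phosphorylation. Of its 10 genes with an FPKM of at least 1, 4 were higher, 4 lower and 2 within 2-fold, with a median of -0.50, against 25.7% higher and 36.5% lower over all genes. Ppp1r15a (GADD34), the phosphatase subunit that reverses the phosphorylation of eIF2, had an FPKM of 5.02 (WT) and 28.1 (UUO), the greatest difference of the list at 2.27. Trib1 was 8.24 and 33.3, Atf3, a stress-induced transcription factor, 15.3 and 38.5, and Cebpb, a dimer partner of CHOP, 22.2 and 49.0. These genes lay on the side of Ddit3, in all scalings tried.

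On the side of Atf4 were 4 genes of the list. Asns, which makes asparagine, had an FPKM of 57.8 (WT) and 7.85 (UUO), a difference of -2.73, the lowest of the list. Eif2s1, the eIF2 subunit that the stress kinases phosphorylate, was 61.5 and 18.3. Cebpg, a dimer partner of ATF4, was 21.0 and 7.31, and Sesn2, a brake on growth signalling, 48.2 and 20.6. On the median-ratio scale 5 genes were higher, 1 (Asns) lower, and the median was 0.45. Of all genes 39.8% were higher and 15.6% lower on that scale. Slc7a11, the cystine transporter, was listed at 0 (WT) and 0.606 (UUO), Chac1 at 0 (WT) and 0.00052 (UUO), and Nupr1 at 0 in both. In this list and among the sensors, genes between the greatest and the least difference were named after their values had been seen.

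**Figure D4:**
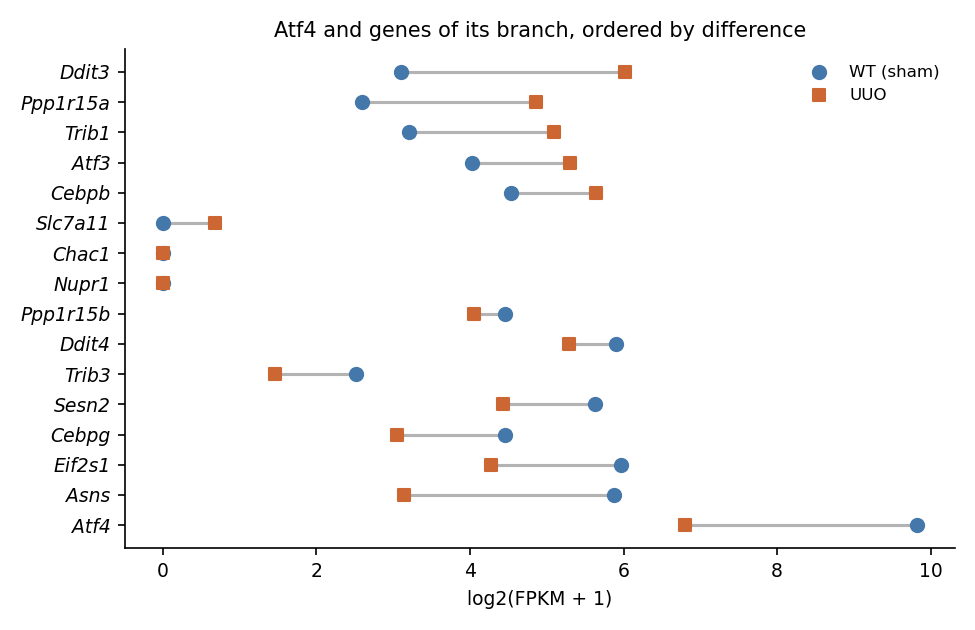
log2(FPKM + 1) of Atf4, Ddit3, Trib3 and the 13 genes of the ATF4 branch list in the WT (blue circles) and UUO library (orange squares), ordered by their difference. Ddit3, Ppp1r15a, Trib1, Atf3 and Cebpb stand at the top, higher in UUO urine, and Atf4 and Asns at the bottom, with differences of -3.02 and -2.73.

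The other ER chaperones and folding enzymes numbered 22, and each reached an FPKM of 1 in either library. Of them 4 were higher and 7 lower, with a median of -0.50, which is near the shares of all genes (25.7% and 36.5%). On the median-ratio scale 7 were higher and 3 lower, near the 39.8% and 15.6% of all genes. The list median was then 0.35, beside 0.46 for all genes. Sdf2l1, a partner of BiP, had an FPKM of 33.3 (WT) and 4.14 (UUO), and P4hb, the main protein disulfide isomerase, 165 and 66.1. Among the higher genes Pdia4 had 3.86 and 11.4. The oxidases of the ER were listed at 0 in opposite libraries: Ero1a at 0 (WT) and 5.69 (UUO), Ero1b at 5.95 (WT) and 0 (UUO). Summed per locus neither was at 0, with 2.82 (WT) and 8.49 (UUO) for Ero1a and 5.99 and 2.06 for Ero1b. Dnajb9, a cochaperone induced by XBP1, was listed at 0 (WT) and 1.53 (UUO), and Manf, a secreted ER protein, at 0 and 2.84. Summed per locus, Manf was 5.47 (WT) and 4.63 (UUO), while Dnajb9 stayed at 0 in WT, with 2.58 in UUO urine. Sdf2l1, P4hb and Pdia4 were named after their values had been seen.

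Of 19 genes of ER-associated degradation 16 were found and 15 had an FPKM of at least 1. Of these 15, 1 was higher and 6 lower, against 25.7% and 36.5% of all genes. The list median was -0.72, beside -0.51 for all genes. The lower genes included Vcp, the ATPase that pulls proteins out of the ER membrane, with an FPKM of 540.0 (WT) and 79.0 (UUO), and its adaptors Ufd1 (42.2 and 11.2) and Nploc4 (39.1 and 10.1). Ufd1 and Nploc4 were named after their values had been seen. Herpud2, the relative of Herpud1, had an FPKM of 0.244 (WT) and 8.70 (UUO), so that both Herpud genes lay on opposite sides. Derl3 was listed at 0 (WT) and 0.518 (UUO), but the 12 features of its locus summed to 44.2 (WT) and 18.6 (UUO). On the median-ratio scale 5 genes of the list were higher and 2 lower, against 39.8% and 15.6% of all genes.

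Of 12 translocon genes, which bring proteins into the ER, 2 were higher and 5 lower, with a median of -0.50, against 25.7% and 36.5% of all genes. Ssr4, counted as higher, was listed on chromosome 1 while RefSeq places it on X, so its value may belong to another locus. On the median-ratio scale 3 translocon genes were higher and 2 lower, with a median of 0.34, against 39.8% and 15.6% of all genes. Sec61g, a subunit of the channel, had the lowest difference at -3.40, with an FPKM of 19.1 (WT) and 0.915 (UUO). Spcs3, of the signal peptidase, was listed at 0 (WT) and 3.86 (UUO), and its locus summed to 1.24 and 7.79. The 11 chaperones of the cytosol and mitochondria that were found gave 1 higher and 4 lower of 10, with a median of -0.90. Hspa8, counted within 2-fold, was listed on chromosome 6 while RefSeq places it on 8. On the median-ratio scale 2 chaperones of this list were higher and 1 lower, against the same 39.8% and 15.6%, and the median was -0.028. Dnaja1, a cytosolic cochaperone, had an FPKM of 443 (WT) and 48.2 (UUO), while Dnajb1, another, had 14.8 and 32.3. No list is shown to differ from another, since there is no replicate.

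**Figure D5:**
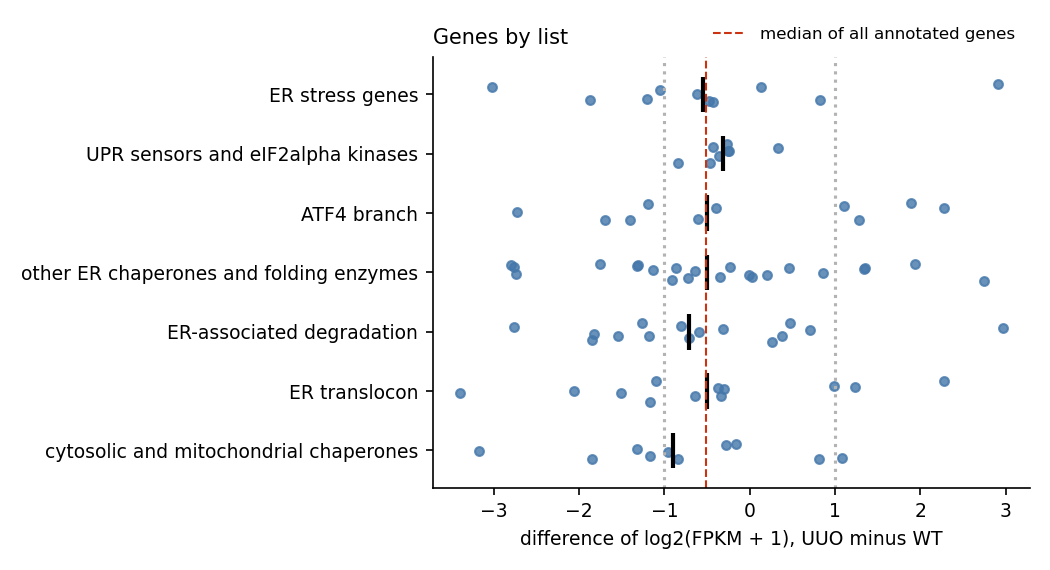
Difference of log2(FPKM + 1), UUO minus WT, of every gene that reached an FPKM of 1 in either library, by list. Black bars are list medians, the dashed red line is the median of all annotated genes that did so (-0.51), and dotted lines mark 2-fold. As deposited the sensors lie within 2-fold, and the members spread from -3.02 to 2.91.

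The libraries also differed in their markers of cell types. Leukocyte markers were higher in UUO urine in 6 of 7 genes, with a summed FPKM of 9.61 (WT) and 139 (UUO), and Ptprc, Cd68, S100a8, S100a9 and Itgam were listed at 0 in WT. Over the 9853 genes that reached an FPKM of 1 in either library, 25.7% were higher and 36.5% lower. A 0 in WT only was listed for 4166 of all 16484 genes, and a 0 in UUO only for 182. Red-cell markers were higher in 7 of 7, with sums of 3207 and 88874. Urothelium markers had sums of 779 and 1099, with 2 of 5 higher (Krt5 and Upk2), 0 lower and Krt5 listed at 0 in WT. On the median-ratio scale 4 of 5 were higher, against 39.8% of all genes. Upk2 lay near the limit, at 1.02. The listed locus of Krt5 holds 25 features and summed to 317 (WT) and 346 (UUO), a difference of 0.13. Kidney tubule markers had sums of 182 and 97.5, with 3 of 7 lower and 0 higher. Aqp2, counted within 2-fold, was listed on chromosome X while RefSeq places it on 7. Of 5 plasma cell markers found, cells rich in ER, Mzb1 and Tnfrsf17 were listed at 0 in both libraries, and Irf4 and Prdm1 at 0 in WT and below 1 in UUO urine. Sdc1, which epithelia also express, had an FPKM of 65.8 (WT) and 147 (UUO). The part of these cells in the differences of Ddit3, Atf4 and the other members was not tested. In such bulk RNA, fewer cells of a type and less RNA per cell cannot be told apart.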

How the data were processed

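Urine RNA of 1 WT (sham-operated) and 1 UUO library was analysed. Per the labels and the study's methods, the authors mapped reads to rn5 with Bowtie2 2.0.6 and TopHat2 2.0.9, assembled transcripts with Cufflinks 2.1.1 and Scripture, and compared libraries with Cuffdiff 2.1.1. The deposited table gives 1 FPKM value per feature and library. The authors' fold changes, test statistics, p-values and q-values are also in it and were not used.

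The columns are named UrRf and Urc. They were read as UUO and WT because, in the urine lists the study published, these values stand under the headings UUO and Sham. Every direction rests on that reading.

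Symbols came from RefSeq (GRCr8), which matched 16329 of 16484 number-only IDs. Differences were computed in Python 3.11.15 (numpy 2.4.6, pandas 2.3.3) with a pseudocount of 1 on genes with an FPKM of at least 1 in either library. Percentiles rank a gene's FPKM among all number-only genes, of which 8460 were at 0 in WT and 4476 in UUO urine. A 0 can be a failed estimate: 4294 of all number-only genes were listed at 0 for WT and UUO, and even Gapdh was at 0.406 (WT) and 0.367 (UUO) FPKM. A further 4166 were at 0 in WT only and 182 in UUO only. FPKM of overlapping features is uncertain, since reads of a locus are divided among them, and the members' loci hold 3 to 11 features.

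Depth was approached through whole-fragment steps in assembled features of 400 to 1200 bp alone at their locus. Within 0.1 of a whole number lay 93.5% of 186 WT values and 99.2% of 400 UUO values drawn at random, with normalising totals of 2115000 and 2445000 fragments. The fit was tested on simulated data. Fragments per kilobase are approximate, since transcript lengths were not used.

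Promoter windows were searched for 8 members, and 1 sequence is not reported here. All 10 members were named. Of the other lists the genes with the greatest and the least difference and those listed at 0 in 1 library could be named, and others are marked as chosen later. Members and lists were chosen with earlier results of these data known. Alternatives were another pseudocount, filter, scaling, fold limit or summing per locus.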

Additional observations from a re-analysis of the deposited data

How the results depend on the processing

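No paired analysis was possible because there was only 1 library per group. Counts within 1.5 times, and differences that kept their sign and side of 1, are taken as unchanged. The 35 results gave 246 values under an alternative, of which 150 were unchanged and 96 moved. Among member differences and list medians, 0 past the 2-fold limit turned their sign. A rescaling adds up to 0.89 to a difference and a pseudocount keeps its sign, so only summing per locus tested this. Summed per locus, Ddit3 went to 0.73 and Trib3 to -0.71. Outside the members, Manf turned from 1.94 to -0.20 when summed per locus.

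Counts of members depended on scaling. Members higher in UUO urine numbered 2 with the sums made equal, 3 with the median ratio, 2 with the 75th percentile and 0 when FPKM was summed per locus. Members lower numbered 2 under each of the 3 rescalings and 1 with a 4-fold limit. Their median difference was 0.067 with equal sums, 0.33 with the median ratio, 0.28 with the 75th percentile. In the same order the medians were 0.22, 0.46 and 0.41 for the sensors, 0.10, 0.45 and 0.40 for the ATF4 branch, 0.092, 0.35 and 0.30 for the other chaperones, and 0.082, 0.34 and 0.28 for the translocon. For ER-associated degradation the median was 0.12 with the median ratio and 0.070 with the 75th percentile. For the cytosolic and mitochondrial chaperones it was -0.29, -0.028 and -0.083, again in that order. All 3 multiply UUO values by a factor above 1, and so shift every median up. Summed per locus, the ATF4 branch median was 0.50, and the cause was not tested.

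Among members, Atf4 (-3.03 to -2.13) and Herpud1 (-1.92 to -1.01) kept their direction and side of 1 under all 6 alternatives tried on single genes. Ddit3 passed the limit in 5 of 6, and Trib3 in 1 of 6. Depth limits Trib3 most, with few fragments per kilobase in both libraries.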
